A study of Mus musculus with 36 samples.

Results

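The early response of enteric glial cells (EGCs) to medium conditioned by a tumor was measured in the 4 TME-CM libraries of 6 h against the 4 H-CM libraries of 6 h, chosen by the treatment and time in their sample titles. They make up 8 of the 36 libraries of the series. The study asked how EGCs respond to factors that the colonic tumor microenvironment releases, and profiled unstimulated, H-CM and TME-CM EGCs after 6, 12 or 24 h by 3′ mRNA sequencing, with 4 libraries per group. All groups held wild-type primary EGCs grown from neurospheres of the embryonic mouse intestine, so that the cells stand for cultured embryonic glia rather than for glia within an adult colon. H-CM was the supernatant of cells from digested healthy colon, TME-CM that of cells from digested orthotopic tumors of MC38, a mouse colon carcinoma line, and unstimulated EGCs received neither. No label says whether the 4 libraries of a group came from separate cultures or animals, so p-values measure the spread between these libraries, which may be technical. In bulk RNA, fewer cells of a type and less RNA per cell cannot be told apart.

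Glial cells of the gut wall surround enteric neurons and answer inflammatory signals by making chemokines and cytokines. Signals such as IL-1 and TNF act through NF-kB, a transcription factor that switches on chemokines of the CXC and CC families together with its own inhibitors. Interferons act through STAT factors, which switch on antiviral genes and a family of GTPases that guard against intracellular microbes, and cytokines of the IL-6 family act through STAT3 and the C/EBP factors.

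The promoters of 3 of the genes that rose hold short motifs of these factors, and the 250 bases before the RefSeq transcript start are shown for them (GRCm38.p6, strand given for each, motif matches in capitals). Gbp2 (+ strand, chr3:142620413-142620662) encodes an interferon-induced GTPase, Cxcl1 (+ strand, chr5:90890995-90891244) a neutrophil attractant and Cxcl10 (− strand, chr5:92348890-92349139) an attractant of T cells.
Gbp2: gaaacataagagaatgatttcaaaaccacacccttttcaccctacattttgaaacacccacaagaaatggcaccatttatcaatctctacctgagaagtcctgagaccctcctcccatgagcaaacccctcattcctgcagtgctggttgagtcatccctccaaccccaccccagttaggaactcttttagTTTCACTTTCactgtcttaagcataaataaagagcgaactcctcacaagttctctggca
Cxcl1: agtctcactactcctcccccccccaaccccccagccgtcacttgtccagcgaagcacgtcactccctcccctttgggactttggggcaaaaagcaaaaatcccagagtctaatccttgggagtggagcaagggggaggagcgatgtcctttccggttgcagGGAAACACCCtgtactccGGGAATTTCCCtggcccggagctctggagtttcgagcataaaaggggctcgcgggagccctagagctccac
Cxcl10: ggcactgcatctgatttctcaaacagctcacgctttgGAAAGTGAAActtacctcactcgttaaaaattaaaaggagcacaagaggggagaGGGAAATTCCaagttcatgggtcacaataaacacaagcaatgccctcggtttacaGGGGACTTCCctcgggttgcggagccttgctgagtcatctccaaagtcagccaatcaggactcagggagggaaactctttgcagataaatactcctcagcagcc
The motifs searched, on both strands, were GGG, then 3 bases of any kind, then TTCC for NF-kB, GAAA, then 2 bases of any kind, then GAAA for the interferon-stimulated response element (ISRE), and TTCNNNGAA for the STAT site GAS, and overlapping matches were each counted. The Gbp2 window holds 1 ISRE match, 59 bases before the RefSeq start. In the GENCODE annotation Gbp2 starts at chr3:142620602, inside this window, and the match lies just past that start. The Cxcl1 window holds 3 NF-kB matches, of which those at 71 and 70 bases before the start overlap and the other lies at 89 bases. The Cxcl10 window holds NF-kB matches at 159 and 104 bases and an ISRE match at 213 bases before the start. Of all 27025 genes with such a window, 5.31% hold the NF-kB motif, 3.46% the ISRE motif and 8.13% the GAS motif. Of the 9 genes that rose, 7 have a window in the table used here. Of these, 2 hold the NF-kB motif, 2 the ISRE motif and 0 the GAS motif, which says only that these letters occur there.

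The 8 libraries were unequal in depth and make-up, which limits every comparison between them. TME-CM libraries held 1321201 to 5244763 counts and H-CM libraries 13518 to 2587492, where the lowest total belonged to H-CM replicate 4 and 1 count of that library is worth 32.7 CPM (counts divided by the TMM-scaled library size in units of 1e6, the scale of all levels given here). A count of 0 in H-CM replicate 4 therefore allows up to 98.1 CPM (3 counts, counting error only). In that library 5502 of the 9256 genes tested were at 0. Statements on overlap take the values as listed, and for a gene at 0 in that library they hold only for H-CM replicates 1 to 3 wherever a TME-CM library lies below 98.1 CPM, as for Gbp2, Cxcl10, Osmr and Isg15. One entry of the table, Yam1, took 11.0% to 48.6% of the counts of these 8 libraries. In H-CM replicate 4, the shallowest, that share was 19.99% with a 95% Wilson interval of 19.3% to 20.7%. Its share was above 25% in H-CM replicates 1 to 3 and in TME-CM replicate 2, and below 25% in TME-CM replicates 1, 3 and 4 and in H-CM replicate 4. Mitochondrial transcripts took a mean of 15.5% of the counts in TME-CM and 6.96% in H-CM libraries (exact permutation test, two-sided, p = 0.0286, the smallest that 4 against 4 libraries allow). The part of these differences in the results was not tested, and because only H-CM replicate 4 shares the low Yam1 class with 3 of the TME-CM libraries, Yam1 class and treatment cannot be told apart in them. TME-CM replicate 2 against H-CM replicates 1 to 3 compares libraries of the same class and is given beside the results for that reason.

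**Figure D1:**
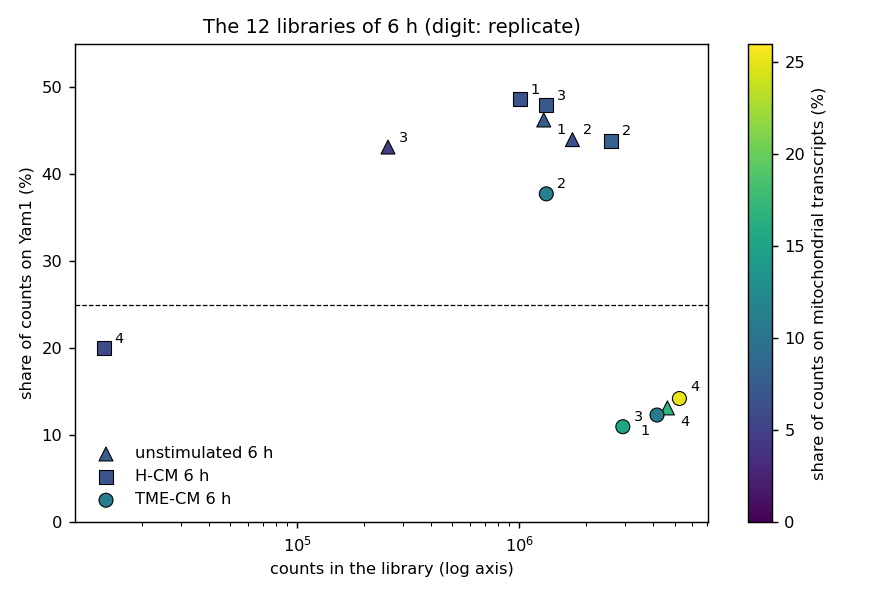
Counts per library (x axis, log scale) against the share of counts on Yam1 (y axis, percent) for the 12 libraries of 6 h, with color for the share on mitochondrial transcripts and the dashed line at 25%. TME-CM replicate 2 sits at 37.8% with the H-CM replicates 1 to 3 (43.9% to 48.6%), whereas the other TME-CM libraries sit between 11.0% and 14.2%.

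A small group of genes was higher in TME-CM EGCs at 6 h, among them 3 chemokines, an interferon-induced GTPase, an NF-kB target, a cytokine receptor subunit and a C/EBP factor. Of 9256 genes tested with edgeR's quasi-likelihood test over the 12 libraries of 6 h, 9 passed an adjusted p of 0.05 (Benjamini-Hochberg over all genes tested), and all 9 were higher in TME-CM than in H-CM EGCs, a background of 0.0972%. They were Gbp2, Cxcl1, Ier3, Mt2, Ccl2, Osmr, Grem1, Cebpd and Cxcl10. At an unadjusted p under 0.05, 467 genes were higher and 95 lower. As listed, each of the 9 genes was higher in all 4 TME-CM libraries than in all 4 H-CM libraries, a pattern that 3.47% of all genes tested shared. Each was also higher in TME-CM replicate 2 than in H-CM replicates 1 to 3, which 24.4% of all genes were. Both patterns come from the libraries that gave the calls, so they are no separate support for them. In simulated counts with the depths and spread of these libraries, the test had little power. With log2 changes of 2 added to randomly drawn genes it called 28 of 179 (15.6%), and with changes of 1 it called 0 of 177. The simulation was not repeated and did not build in the Yam1 and mitochondrial differences between the libraries, so power in the real counts may differ. Without H-CM replicate 4, or without H-CM replicate 2, H-CM replicate 3 or TME-CM replicate 3, 2 genes were called, Gbp2 and Cxcl1, and without TME-CM replicate 2 there were 25.

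**Figure D2:**
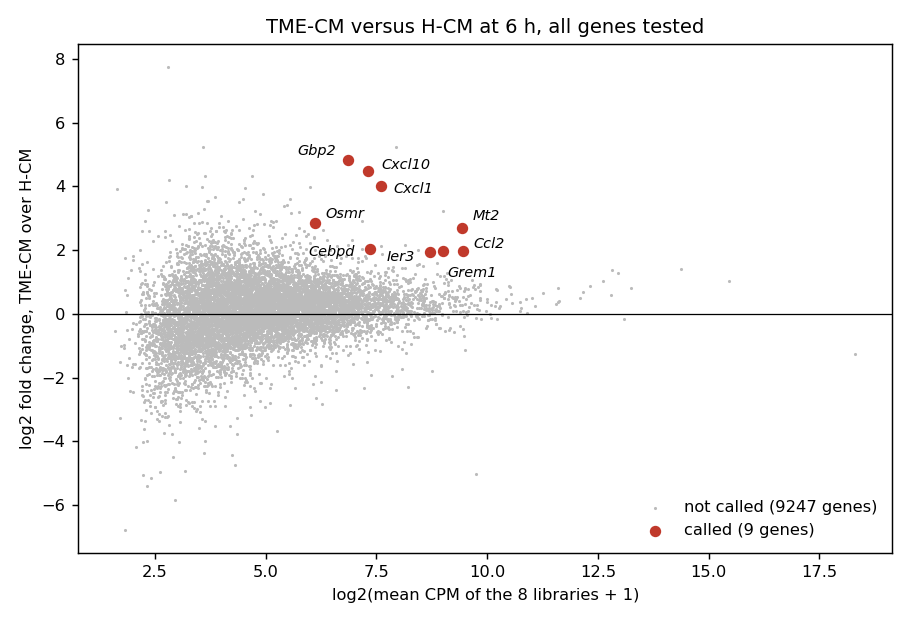
Log2 fold change at 6 h (y axis, positive where TME-CM was above H-CM) against the mean level of the 8 libraries as log2(CPM + 1) (x axis) for the 9256 genes tested. The 9 called genes (red) all lie above 0, between 1.95 and 4.82, and the genes not called are gray.

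Chemokines made up 3 of the 9 genes. Cxcl1, which draws neutrophils through CXCR2, stood at 43.3, 18.3, 11.6 and 0 CPM in H-CM replicates 1 to 4 and at 358, 147, 474 and 491 CPM in TME-CM replicates 1 to 4 (log2 fold change 4.01 ± 0.55 (SE), adjusted p = 0.000281 by edgeR). The lowest TME-CM library, replicate 2, was more than 3 times the highest of H-CM replicates 1 to 3, and also above the 98.1 CPM that 0 counts in H-CM replicate 4 allow. Cxcl10, which draws T cells through CXCR3, measured 35.7, 3.65, 5.81 and 0 CPM in H-CM and 82.0, 129.6, 394 and 614 CPM in TME-CM EGCs (log2 fold change 4.49 ± 0.84 (SE), adjusted p = 0.0441 by edgeR). TME-CM replicate 1, the lowest, lay above H-CM replicates 1 to 3, and its exons share 133 bases with Art3 on the opposite strand. Ccl2, which draws monocytes through CCR2, measured 467, 256, 222 and 163 CPM in H-CM and 961, 864, 774 and 1885 CPM in TME-CM EGCs (log2 fold change 1.96 ± 0.39 (SE), adjusted p = 0.0330 by edgeR). TME-CM replicate 4 was the highest, far above the other TME-CM libraries, and the lowest of these still lay above H-CM replicate 1. H-CM replicate 4 had 5 counts of Ccl2. The unstimulated libraries of 6 h held 5.10 to 19.5 CPM of Cxcl1, 0.910 to 5.71 CPM of Cxcl10 and 78.1 to 120.4 CPM of Ccl2.

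Gbp2 carried the largest change of the 9 genes. It measured 17.8, 4.11, 3.87 and 0 CPM in H-CM replicates 1 to 4 and 93.0, 105, 367 and 322 CPM in TME-CM replicates 1 to 4 (log2 fold change 4.82 ± 0.66 (SE), adjusted p = 0.000281 by edgeR), with 8.57 to 14.7 CPM in the unstimulated libraries. TME-CM replicates 3 and 4 were highest, and every TME-CM library lay above H-CM replicates 1 to 3. Gbp2 shares 24 exon bases with the microRNA gene Mir6381 of the other strand, and whether the counting used strand is not given in the sources used here. In GRCm38, Gbp2 lies at chr3:142620602-142638008 (+), Cxcl1 at chr5:90891241-90893115 (+), Cxcl10 at chr5:92346638-92348889 (−), Ccl2 at chr11:82035571-82037453 (+), Osmr at chr15:6813577-6874969 (−), Cebpd at chr16:15887286-15891031 (+), Ier3 at chr17:35821684-35822923 (+), Mt2 at chr8:94172664-94173568 (+) and Grem1 at chr2:113746164-113758646 (−), all protein-coding genes.

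Osmr, the receptor subunit for oncostatin M, a cytokine of the IL-6 family, measured 17.8, 16, 20.3 and 0 CPM in H-CM and 170.4, 71.1, 132 and 115 CPM in TME-CM EGCs (log2 fold change 2.84 ± 0.56 (SE), adjusted p = 0.0330 by edgeR). The TME-CM libraries all lay well above H-CM replicates 1 to 3. Cebpd, a transcription factor of acute phase genes, measured 96.8, 68.0, 39.7 and 32.7 CPM in H-CM and 243, 182, 363 and 271 CPM in TME-CM EGCs (log2 fold change 2.04 ± 0.42 (SE), adjusted p = 0.0441 by edgeR). Every TME-CM library was above the highest H-CM library, replicate 1, and H-CM replicate 4 had 1 count of Cebpd. Its exons share 562 bases with Spidr on the opposite strand.

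Ier3, an NF-kB target that protects cells from death, measured 169, 163, 167 and 196 CPM in H-CM and 714, 413, 1057 and 467 CPM in TME-CM EGCs (log2 fold change 1.95 ± 0.37 (SE), adjusted p = 0.0330 by edgeR). The SD of its H-CM libraries was 14.9 CPM, less than the gap between the highest H-CM and the lowest TME-CM library. The value of H-CM replicate 4 rests on 6 counts, whose counting error is wider than that SD. Mt2, a metallothionein that binds zinc and copper, measured 319.7, 156, 126 and 98.1 CPM in H-CM and 2140.2, 332, 1348 and 1006 CPM in TME-CM EGCs (log2 fold change 2.71 ± 0.51 (SE), adjusted p = 0.0330 by edgeR). TME-CM replicate 2 lay only just above H-CM replicate 1, H-CM replicate 4 had 3 counts of Mt2, and the exons share 432 bases with Gm45774 on the opposite strand. Grem1, a secreted antagonist of BMP, measured 136, 191, 226 and 327 CPM in H-CM and 1107, 333, 1058 and 732 CPM in TME-CM EGCs (log2 fold change 1.96 ± 0.40 (SE), adjusted p = 0.0441 by edgeR). TME-CM replicate 2 was also the lowest of its group for Grem1, just above H-CM replicate 4, whose value rests on 10 counts.

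**Figure D3:**
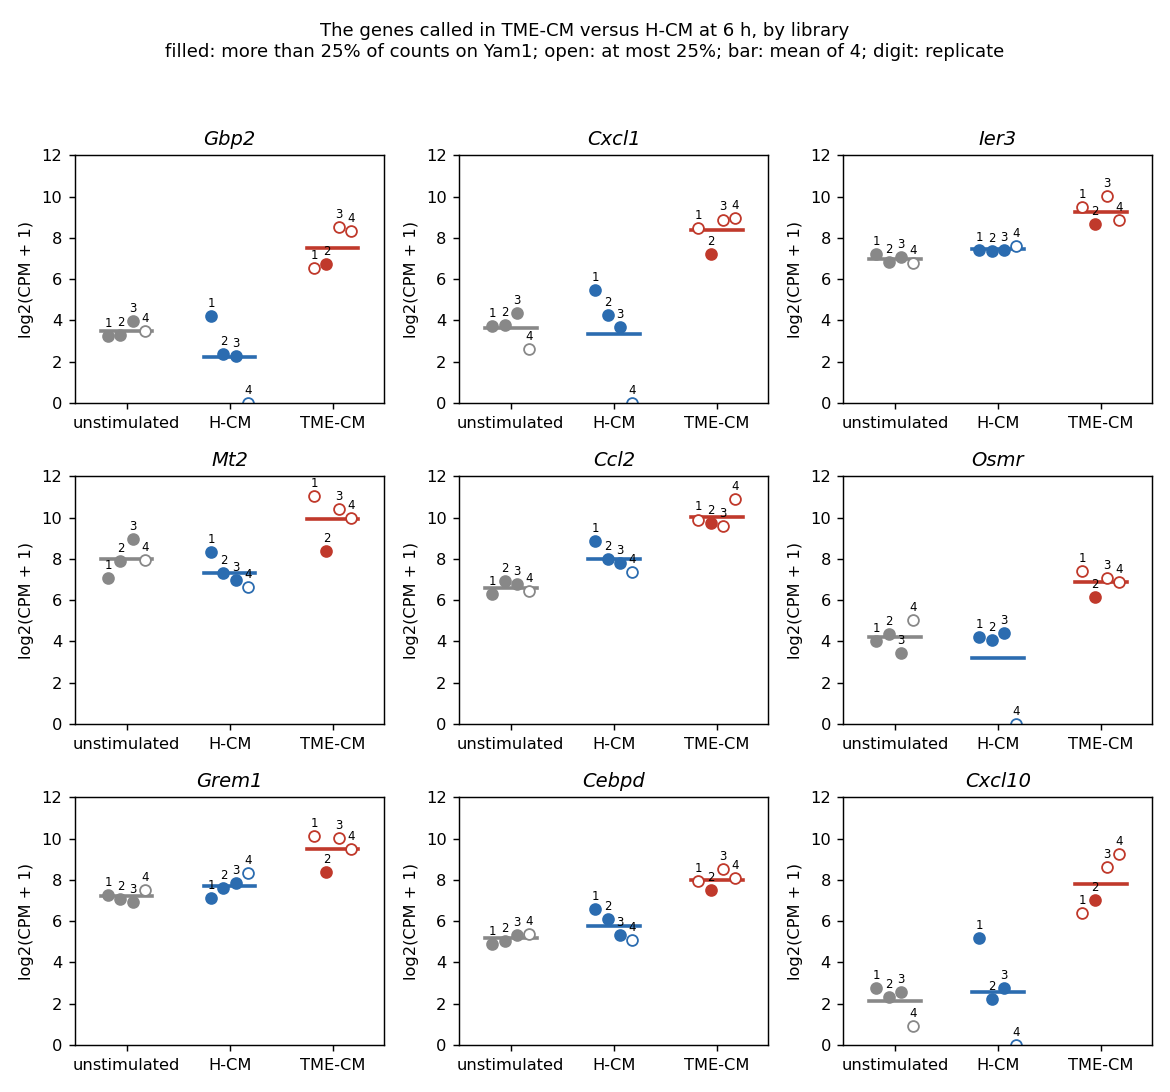
Level of each of the 9 called genes in the 12 libraries of 6 h as log2(CPM + 1) (y axis), with a bar at the mean of 4 libraries, digits for the replicate, filled points for a Yam1 share above 25% and open points for a share at or below it. In each panel the 4 TME-CM points, as listed, lie above the 4 H-CM points, and the filled TME-CM point, replicate 2, is the lowest of its group for 6 genes (Cxcl1, Ier3, Mt2, Osmr, Grem1 and Cebpd).

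Within the libraries with a Yam1 share above 25%, where TME-CM replicate 2 is compared with H-CM replicates 1 to 3 and the lone library is assumed to vary like the other groups, 0 genes were called by edgeR (137 at an unadjusted p under 0.05). The 9 genes kept their direction there, with log2 fold changes of 3.70 for Gbp2, 3.21 for Cxcl10, 2.62 for Cxcl1, 1.97 for Osmr, 1.46 for Ccl2, 1.42 for Cebpd, 1.31 for Ier3, 0.84 for Grem1 and 0.73 for Mt2. All 9 values were smaller than those over all libraries. With a term for the Yam1 class added to the fit, Gbp2 and Cxcl1 were called (log2 fold changes 4.27 and 3.99, adjusted p = 0.00887 and 0.00887 by edgeR). Over the 21 alternatives tried, Gbp2 and Cxcl1 were called in 20 and each of the other 7 genes in 8 to 11, and none of the 9 genes changed sign.

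All 9 genes were also higher in TME-CM than in unstimulated EGCs with an adjusted p under 0.05 (edgeR, log2 fold changes 2.13 for Mt2 to 6.58 for Cxcl10), in a comparison that uses the same TME-CM libraries and called 40 genes higher (0.432%) and 2 lower. Between H-CM and unstimulated EGCs 0 genes were called (edgeR and DESeq2, 58 and 86 genes at an unadjusted p under 0.05). Ccl2 had a log2 fold change of 1.57 and Cxcl10 of 2.09 in H-CM against unstimulated EGCs, neither of which passed the test, and Gbp2, Osmr and Mt2 had values below 0 (-0.35, -0.25 and -0.58).

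Further genes had values above 0 without passing the test. Among the 10 genes next in line by unadjusted p, with no overlap between the groups and a group mean of at least 20 CPM, were Isg15, Akt1s1, Nfkbia, Rnd1, Nfkbiz, Sod2, Socs3, Ifi47 and Eif2ak2, with adjusted p-values from 0.0644 to 0.187 by edgeR. Isg15, a ubiquitin-like protein of the interferon response, measured 6.37, 5.94, 11.6 and 0 CPM in H-CM and 34.0, 39.3, 250.1 and 159.9 CPM in TME-CM EGCs (log2 fold change 3.97 ± 0.85 (SE)). The TME-CM libraries lay above H-CM replicates 1 to 3 for Isg15 and were much higher in replicates 3 and 4 than in 1 and 2. Nfkbia, the inhibitor that NF-kB induces against itself, measured 311, 244, 215 and 131 CPM in H-CM and 657, 431, 1050.3 and 688 CPM in TME-CM EGCs (log2 fold change 1.58 ± 0.38 (SE)). Nfkbiz, a nuclear partner of NF-kB in secondary targets, had a log2 fold change of 2.41 ± 0.58 (SE). Socs3, the feedback inhibitor of STAT3 signaling, had one of 3.15 ± 0.77 (SE), Sod2, the mitochondrial superoxide dismutase, one of 1.81 ± 0.44 (SE), and Ifi47, an interferon-induced GTPase, one of 2.38 ± 0.58 (SE). These 9 genes were higher in TME-CM replicate 2 than in H-CM replicates 1 to 3, which the rule of no overlap requires. Akt1s1, Rnd1 and Eif2ak2 were highest in TME-CM replicate 3, at 235, 211 and 211 CPM, and their values in TME-CM replicate 2 were 12.5, 24.2 and 30.9 CPM.

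The chemokine lists were described by their counts beside those of all genes tested, of which 56.8% had a log2 fold change above 0, with a median of 0.13 (0.03 with DESeq2 size factors). Of 6 neutrophil-attracting CXC chemokines, 3 passed the filter on low counts, and 1, Cxcl1, rose. Cxcl2 measured 31.8, 3.20, 6.78 and 0 CPM in H-CM and 413, 138, 462 and 893 CPM in TME-CM EGCs, without overlap (log2 fold change 5.25 ± 1.11 (SE), adjusted p = 0.187 by edgeR). Cxcl5 measured 25.5, 2.28, 8.71 and 65.4 CPM in H-CM and 77.0, 27.6, 40.7 and 138 CPM in TME-CM EGCs, and H-CM replicate 4, with 2 counts, overlapped TME-CM. Of the CC chemokines, 4 of 14 were tested, and Ccl7, a monocyte attractant like Ccl2, measured 121, 48.0, 48.4 and 163 CPM in H-CM and 325, 213, 298 and 359.6 CPM in TME-CM EGCs (log2 fold change 1.87 ± 0.47 (SE), adjusted p = 0.187 by edgeR). Ccl5 stayed below 10 CPM in the 7 libraries other than H-CM replicate 4, where it had 0 counts (log2 fold change -1.66). Ccl9 measured 16.6, 12.8, 15.5 and 32.7 CPM in H-CM and 0, 42.6, 0.351 and 0.187 CPM in TME-CM EGCs, with TME-CM replicate 2 alone at the level of H-CM or above. Of the other CXC and CX3C chemokines, 5 of 9 were tested, Cxcl10 rose, and Cxcl16, Cx3cl1 and Cxcl12 had values of 2.23, 1.57 and -0.15. The other member, Pf4, was at -2.89, named after its value was seen, and the median of the 5 was 1.57 (0.12 within high Yam1 share).

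Cytokines of the IL-6 family were mostly too low for the test, and 2 of 17 listed cytokines and growth cytokines were tested, Il33 at 2.28 (unadjusted p = 0.0845) and Csf1 at 0.70 (unadjusted p = 0.0960). Il6 itself did not pass the filter. Its counts were 2, 11, 0 and 0 in H-CM replicates 1 to 4 and 108, 29, 2 and 275 in TME-CM replicates 1 to 4, or 2.55, 5.02, 0 and 0 CPM against 21.6, 24.2, 0.703 and 51.4 CPM. TME-CM replicate 3 lay within the H-CM range for Il6 and the other 3 TME-CM libraries lay above H-CM replicates 1 to 3. Fitted without the filter, Il6 had a log2 fold change of 3.25 ± 1.43 (SE, adjusted p = 0.414 by edgeR). Among receptors of the IL-1 and IL-6 families, 8 of 14 were tested and 6 had values above 0. Beside Osmr, Il1r1, the signaling receptor of IL-1, measured 16.6, 36.5, 18.4 and 0 CPM in H-CM and 52.2, 44.3, 111 and 133 CPM in TME-CM EGCs (log2 fold change 1.92 ± 0.66 (SE), adjusted p = 0.649 by edgeR), with 4.88 to 36.2 CPM in unstimulated libraries. Il6st, the shared subunit gp130, had a value of 1.20 (unadjusted p = 0.0215), and Il11ra1 one of 0.54 (unadjusted p = 0.322).

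Of 25 NF-kB subunits and feedback genes, 17 were tested, 16 had log2 fold changes above 0 and 1, Ier3, rose. The median of the 17 was 1.32 (1.28 over the 19 tested without H-CM replicate 4, and 0.67 within high Yam1 share), and 7 of them were higher without overlap between the groups, as 3.47% of all genes were. Beside Ier3, Nfkbia and Nfkbiz, these were Bcl3, Icam1, Vcam1 and Tnfaip2, of which Bcl3, Icam1 and Vcam1 were chosen after their values were seen. Tnfaip2, a gene induced by TNF, had a value of 1.53 (unadjusted p = 0.000767), Rela, the p65 subunit of NF-kB, one of 1.20 (unadjusted p = 0.0281), and Vcam1 and Icam1, adhesion molecules for leukocytes, values of 2.62 (unadjusted p = 0.00436) and 2.32 (unadjusted p = 0.0152). In TME-CM replicate 2, 13 of the 17 lay above H-CM replicates 1 to 3, as 24.4% of all genes did. The genes of mRNA decay and signaling feedback had 6 of 18 above 0, a median of -0.21, with Socs3 as the member of smallest p. Dusp6 and Dusp5, phosphatases of MAP kinases, were at -1.09 (unadjusted p = 0.127) and -0.64 (unadjusted p = 0.243). Immediate early genes had 10 of 18 above 0 and a median of 0.38 (0.00 without H-CM replicate 4), with Junb, an AP-1 subunit, at 1.82 (unadjusted p = 0.00234) and Fosl2 at 0.91 (unadjusted p = 0.0382), and with Jun at -0.10 (unadjusted p = 0.804). Without overlap between the groups, 2 of the 18 were higher in TME-CM, Junb and Fosl2, as 3.47% of all genes were. Lower without overlap were also 2, as 0.594% of all genes were. These, chosen after their values were seen, were Ier2 at -1.63 (unadjusted p = 0.0837) and Fosl1 at -1.40 (unadjusted p = 0.165).

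Of 32 type I interferon-stimulated genes, 22 were tested, 21 had values above 0 and 0 were called (edgeR, 9 at an unadjusted p under 0.05), with a median of 1.37 (1.26 within high Yam1 share). Isg15, Rsad2, Rtp4 and Ifitm3 were among the 5 higher without overlap between the groups, beside 3.47% of all genes (Rsad2 and Rtp4 were named after their values were seen). Of the 22, 15 were higher in TME-CM replicate 2 than in H-CM replicates 1 to 3, as 24.4% of all genes were. Ifit3, an antiviral RNA-binding protein, measured 199.99, 31.1, 19.4 and 0 CPM in H-CM and 248, 176, 622 and 246 CPM in TME-CM EGCs (log2 fold change 2.13 ± 0.62 (SE)). Ifitm3, which blocks viral entry, measured 475, 299.6, 324 and 425 CPM in H-CM and 1033, 525, 1022 and 550.2 CPM in TME-CM EGCs (log2 fold change 1.053 ± 0.35 (SE)). Of 18 interferon-gamma-induced GTPases and factors, 13 were tested, all 13 had values above 0 and 1, Gbp2, rose, with a median of 1.87 (1.59 within high Yam1 share). Iigp1, a GTPase that acts on vacuoles of intracellular pathogens, measured 57.3, 22.4, 14.5 and 65.4 CPM in H-CM and 60.4, 265, 330.2 and 335 CPM in TME-CM EGCs, and H-CM replicate 4, with 2 counts, lay above TME-CM replicate 1. Igtp, a GTPase of the same family, had a value of 3.16 (unadjusted p = 0.00470), and Irf1, a transcription factor that interferon-gamma induces, one of 1.85 (unadjusted p = 0.0111). In TME-CM replicate 2, 10 of the 13 lay above H-CM replicates 1 to 3, beside 24.4% of all genes. Genes of MHC class I antigen presentation, which interferons also induce, had 5 of 11 above 0 and a median of -0.07. B2m, the light chain of MHC class I, measured 901 ± 137 CPM in H-CM and 824 ± 179 CPM in TME-CM EGCs (SD, n = 4 each), H2-K1 had a log2 fold change of -0.28 and H2-D1 one of -0.07. The median of the 11 was 0.60 within high Yam1 share and 1.38 with the Yam1 term, and H2-K1 and H2-D1 were at 1.99 and 1.02 with that term. The part of the Yam1 class in these values was not tested.

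**Figure D4:**
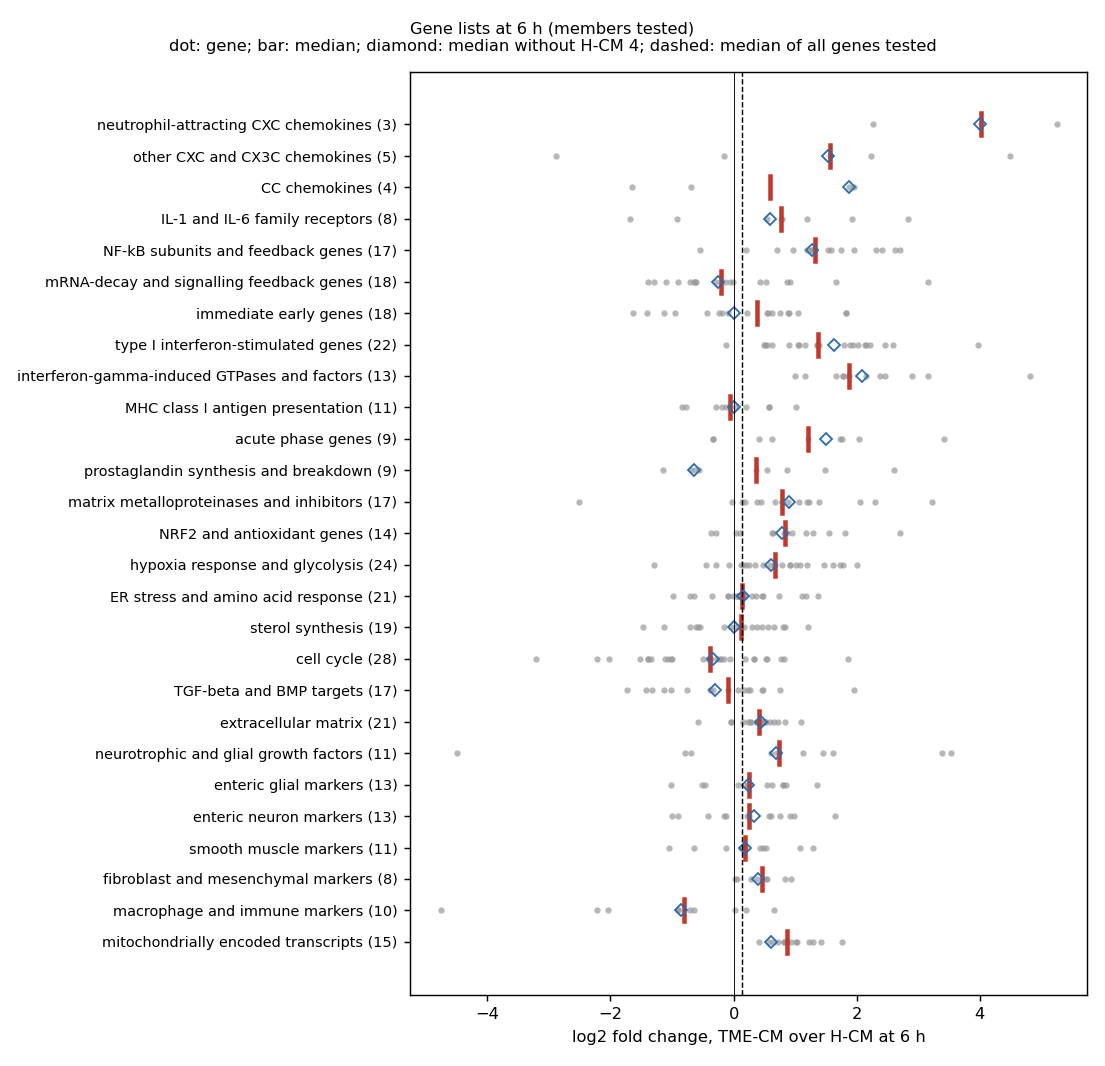
Log2 fold change at 6 h (x axis, positive where TME-CM was higher than H-CM) for the tested members of 27 gene lists (y axis, number tested in parentheses), with a dot per gene, a bar at the median and a diamond at the median without H-CM replicate 4. The median of all genes tested, 0.13, is dashed, and the chemokine, NF-kB and interferon lists sit to its right, at 0.59 to 4.01. Other lists do so too, such as acute phase genes (1.21), mitochondrial transcripts (0.87) and antioxidant genes (0.84), whereas cell cycle genes (-0.38) and macrophage and immune markers (-0.81) sit to its left.

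Of 18 acute phase genes, 9 were tested, 7 had values above 0, Cebpd rose and the median was 1.21. Without H-CM replicate 4, all 11 then tested had values above 0. Timp1, an inhibitor of metalloproteinases, measured 49.7, 45.2, 36.8 and 131 CPM in H-CM and 175, 79.4, 141 and 82.2 CPM in TME-CM EGCs (log2 fold change 1.21 ± 0.50 (SE)), and was 1.495 without H-CM replicate 4, whose value rests on 4 counts. Lcn2, an iron-siderophore binding protein, measured 22.9, 11.4, 16.5 and 98.1 CPM in H-CM and 28, 26.8, 14.4 and 13.5 CPM in TME-CM EGCs, and its log2 fold change of -0.34 turned to 0.33 without the 3 counts of H-CM replicate 4. Saa3, an acute phase apolipoprotein, measured 381, 192, 147 and 1438 CPM in H-CM and 457, 399.6, 458 and 209 CPM in TME-CM EGCs (log2 fold change -0.33 ± 0.996 (SE)). Without H-CM replicate 4, Saa3 was at 0.72, and the groups overlapped for both Lcn2 and Saa3. Stat3 had a value of 0.41 (unadjusted p = 0.283).

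In prostaglandin synthesis, 9 of 13 genes were tested and 0 were called (edgeR, 2 at an unadjusted p under 0.05). Ptgs2, which encodes cyclooxygenase-2, measured 203, 197, 252 and 98.1 CPM in H-CM and 289, 504, 406 and 1034 CPM in TME-CM EGCs, without overlap (log2 fold change 1.49 ± 0.43 (SE), adjusted p = 0.368 by edgeR). Ptgs1, which encodes cyclooxygenase-1, and Pla2g4a, the phospholipase that frees arachidonic acid, had values of 0.54 (unadjusted p = 0.191) and 0.87 (unadjusted p = 0.152). Among 17 matrix metalloproteinases and inhibitors tested, 15 had values above 0. Mmp10, a stromelysin, measured 66.2, 123, 49.4 and 229 CPM in H-CM and 645, 197, 1215 and 1552 CPM in TME-CM EGCs (log2 fold change 3.22 ± 0.64 (SE), adjusted p = 0.0561 by edgeR), and H-CM replicate 4 overlapped TME-CM. Timp2 and Timp3, inhibitors of metalloproteinases, had values of 0.45 (unadjusted p = 0.239) and 0.38 (unadjusted p = 0.380).

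Of 24 genes of hypoxia response and glycolysis tested, 20 had values above 0 and the median was 0.67, with Hk2, a hexokinase, at 117, 161, 124 and 65.4 CPM in H-CM and 209, 175, 544 and 463 CPM in TME-CM EGCs (log2 fold change 1.47 ± 0.41 (SE)). Ldha, lactate dehydrogenase, had a value of 1.08 (unadjusted p = 0.0193), and Pkm and Slc2a1, pyruvate kinase and the glucose transporter GLUT1, values of 0.12 (unadjusted p = 0.736) and 0.20 (unadjusted p = 0.687). In TME-CM replicate 2, 8 of the 24 lay above H-CM replicates 1 to 3, beside 24.4% of all genes, and the median within the libraries of high Yam1 share was 0.02. Among the 14 antioxidant genes tested, Mt2 rose, 12 had values above 0, and Mt1, the other metallothionein, was at 1.29 (unadjusted p = 0.00349). The lists of ER stress and of sterol synthesis had medians of 0.13 and 0.12, near that of all genes, with Hspa5, the chaperone BiP, at 0.48 (unadjusted p = 0.182). Extracellular matrix genes had 18 of 21 above 0 with a median of 0.41, and Col3a1 and Col1a1 were at 0.84 (unadjusted p = 0.0347) and 0.39 (unadjusted p = 0.309).

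Cell cycle genes had 8 of 28 above 0, a median of -0.38 and 0 called (edgeR, 2 lower and 1 higher at an unadjusted p under 0.05). Birc5, the mitotic protein survivin, measured 38.2, 17.8, 35.8 and 229 CPM in H-CM and 8.60, 23.4, 2.11 and 20.2 CPM in TME-CM EGCs (log2 fold change -2.03 ± 0.93 (SE)). The value of H-CM replicate 4 rests on 7 counts. Without that library the log2 fold change of Birc5 was -1.16, and within high Yam1 share it was -0.36. Top2a and Cdk1 were at -0.05 (unadjusted p = 0.911) and 0.54 (unadjusted p = 0.360). The median of the list was 0.25 with a term for the Yam1 class. Of the TGF-beta and BMP genes, 17 were tested, Grem1 rose, and Bmp4, a ligand that Grem1 binds, measured 79.0, 42.0, 53.2 and 65.4 CPM in H-CM and 15.0, 33.4, 31.3 and 14.8 CPM in TME-CM EGCs (log2 fold change -1.33 ± 0.52 (SE), adjusted p = 0.735 by edgeR), with no overlap. Ctgf, a matricellular target of TGF-beta and YAP, was at -1.13 (unadjusted p = 0.185), and Id2 and Id3, BMP targets, at -0.38 (unadjusted p = 0.292) and 0.76 (unadjusted p = 0.0589). Of the growth factors, 11 were tested and 0 were called (edgeR, 3 higher and 1 lower at an unadjusted p under 0.05), with Pdgfa, a mitogen of mesenchymal and glial cells, at 1.45 (unadjusted p = 0.00179), Ereg, a ligand of the EGF receptor, at 3.39 (unadjusted p = 0.000514) and Hbegf, another such ligand, at -0.70 (unadjusted p = 0.218). The lowest member, Nrg1, a neuregulin that acts on glia, was at -4.49 (unadjusted p = 0.0181) and was named after its value was seen.

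No gene was called lower in TME-CM EGCs by edgeR in the 12 libraries of 6 h (95 at an unadjusted p under 0.05). DESeq2 and voom called 2 each, edgeR called 1 without a filter and 5 without TME-CM replicate 2, and the fit of all 36 libraries called 403 lower and 496 higher. Without overlap between the groups, 55 genes were lower (0.594%). That count depends on H-CM replicate 4, in which a gene at 0 cannot be higher than any TME-CM library, and leaving that library out gave 406 genes lower and 393 higher. The 10 lower genes with the smallest p and a group mean of at least 20 CPM were Ikzf1, Nfia, Bmp4, Ski, Sae1, Rcc2, Chmp7, Rpl27-ps3, Gpr89 and Hnrnpr, with adjusted p-values from 0.681 to 0.792 by edgeR. Nfia, a transcription factor of glial development, measured 192, 85.9, 153 and 98.1 CPM in H-CM and 26.4, 85.3, 80.1 and 41.5 CPM in TME-CM EGCs (log2 fold change -1.24 ± 0.48 (SE)). Ikzf1, a transcription factor of blood cells, measured 36.9, 8.22, 32.9 and 65.4 CPM in H-CM and 0, 5.85, 0 and 0 CPM in TME-CM EGCs. Ski, a repressor of TGF-beta signaling, and Rcc2, a regulator of mitosis, had values of -1.01 ± 0.40 (SE) and -0.99 ± 0.40 (SE). In 9 of the 10, all but Rpl27-ps3, TME-CM replicate 2 was the highest TME-CM library, and the part of library make-up in these values was not tested.

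The markers of enteric glia were detected in both groups and none was called. Sox10, the transcription factor of the glial lineage, measured 66.2, 81.3, 55.2 and 32.7 CPM in H-CM and 75.0, 92.0, 72.4 and 62.4 CPM in TME-CM EGCs. S100b, a calcium-binding protein, measured 58.6, 151, 93.9 and 98.1 CPM in H-CM and 232, 118, 63.6 and 56.8 CPM in TME-CM EGCs. The log2 fold changes were 0.24 ± 0.49 (SE) and 0.22 ± 0.49 (SE). In the simulated counts of 6 h, 0 of 177 log2 changes of 1 were called, so that changes well above these SEs could be missed. Of 15 glial markers, 13 were tested, of which 1 had an unadjusted p under 0.05 by edgeR. In TME-CM replicate 2, 11 of the 13 lay above H-CM replicates 1 to 3, as 24.4% of all genes did. Gfap had 0 to 21 counts per library and was not tested. Sparcl1, a matricellular protein of glia, measured 281 ± 79.5 CPM in H-CM and 424 ± 178 CPM in TME-CM EGCs (SD, n = 4 each), and Ntsr1, a neurotensin receptor, was at 14.0, 18.3, 8.71 and 0 CPM and 0.600, 20.9, 1.41 and 2.80 CPM. In Ntsr1, TME-CM replicate 2 lay with the H-CM libraries and the other TME-CM libraries lay below H-CM replicates 1 to 3.

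Markers of other cells were present as well, and none of their lists held a called gene. The summed level of 11 smooth muscle markers was 1929 to 2434 CPM in H-CM and 1895 to 4362 CPM in TME-CM libraries, with TME-CM replicate 2 the lowest. That of the fibroblast and mesenchymal markers was 2746 to 4813 CPM in H-CM and 5143 to 6582 CPM in TME-CM libraries, without overlap. The 13 neuron markers tested had a median log2 fold change of 0.24, with sums of 392.3 to 665 CPM in H-CM and 486 to 859 CPM in TME-CM libraries. Of 7 endothelial markers, Kdr alone was tested, at -1.20 (unadjusted p = 0.241). The glial markers summed to 621 to 1280.5 CPM in H-CM and 1049 to 1641 CPM in TME-CM libraries. Macrophage and immune markers summed to 98.1 to 354 CPM in H-CM, to 404 and 389 CPM in TME-CM replicates 1 and 2 and to 60.8 and 57.7 CPM in TME-CM replicates 3 and 4. Of the 10 tested, 3 had values above 0. Markers of epithelium and tumor cells were near 0, with summed levels from 0 to 10.05 CPM in the 7 libraries other than H-CM replicate 4, which had 0 counts of them, and 0 of 10 tested. All 15 mitochondrially encoded transcripts had values above 0, with a median of 0.87 and 0 called (edgeR, 7 at an unadjusted p under 0.05). In TME-CM replicate 2, 14 of them lay above H-CM replicates 1 to 3, as 24.4% of all genes did. The part of these cell markers in the results was not tested.

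At the later times the same comparison called more genes, in libraries not used at 6 h. The numbers of calls do not measure the size of the response, because the power of the test in simulated counts differed between times. Log2 changes of 2 added to simulated counts were called for 174 of 195 genes (89.2%) in the 24 h libraries. In those of 6 h it was 28 of 179 (15.6%). The spread between libraries also fell, with a common dispersion in edgeR of 0.572 (6 h), 0.122 (12 h) and 0.0455 (24 h). At 12 h, 148 genes were higher (1.22%) and 82 lower (0.675%), and at 24 h 349 were higher (2.75%) and 337 lower (2.65%). Of the 9 genes of 6 h, 7 were called higher at 12 h and 9 at 24 h. Gbp2 and Grem1 were not called at 12 h (log2 fold changes 3.39 and 0.43, adjusted p = 0.0643 and 0.425 by edgeR). At 24 h the log2 fold changes ranged from 0.68 for Grem1 to 3.71 for Cxcl1, with Gbp2 at 2.17 and Cebpd at 2.503. The change from 6 h to 24 h, tested as an interaction, was called for 0 genes by edgeR (1021 at an unadjusted p under 0.05) and for 34 by DESeq2. For Gbp2 it was -2.68 ± 0.78 (SE, adjusted p = 0.267 by edgeR).

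**Figure D5:**
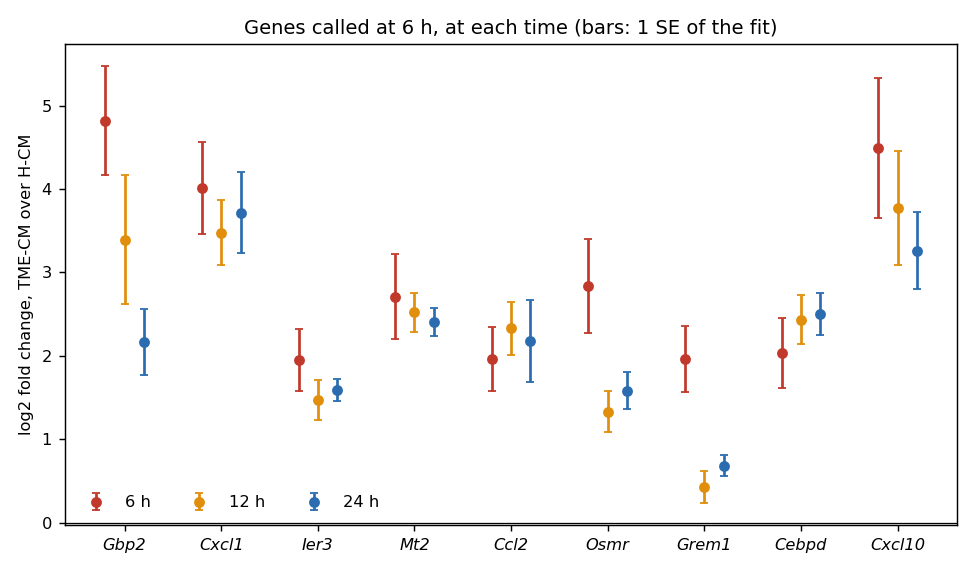
Log2 fold change (y axis, positive where TME-CM was higher than H-CM) at the 3 times, 6 h, 12 h and then 24 h, for the 9 genes called at 6 h (x axis), with bars of 1 SE. All 9 genes lie above 0 at each time, and the bars are longest at 6 h for 7 of them, all but Gbp2 and Ccl2.

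Genes called at the later times were looked up at 6 h. Of those higher at 12 h, 120 were tested at 6 h, 105 of them (87.5%) had values above 0, against 56.8% of all genes, and 40 (33.3%) were higher without overlap between the groups, against 3.47% of all genes. Of those higher at 24 h, 238 of 282 (84.4%) were above 0, with a median log2 fold change of 0.82. The genes lower at 12 h were below 0 at 6 h in 44 of 79 (55.7%), and those lower at 24 h in 148 of 276 (53.6%), with medians of -0.12 and -0.04. Of all genes, 56.8% were above 0 and so a minority below, with a median of 0.13. Lower without overlap at 6 h were 2 of the 79 (2.53%) and 0 of the 276, against 0.594% of all genes. A gene at 0 in H-CM replicate 4 cannot meet that criterion. Lcn2 and Timp1, acute phase genes without a call at 6 h, had log2 fold changes of 5.25 and 2.98 at 12 h and were called there and at 24 h. Il1r1 was called at 24 h (1.57), Ntsr1 was called lower at 12 h and 24 h (-1.60 and -1.81), and Sparcl1 lower at 24 h (-1.29). Of the MHC class I genes, 0 of 11 were called at 6 h (edgeR, 0 at an unadjusted p under 0.05) and 9 were called higher at 24 h. Of the 24 hypoxia and glycolysis genes tested, 0 were called at 6 h and 15 were called higher at 24 h. At 6 h, 6 of the 24 had an unadjusted p under 0.05 by edgeR, beside 562 of all 9256 genes. Of all genes tested at 24 h, 2.75% were called higher. Of 9 genes that the study drew for its co-expression module 7, a list chosen on these samples and so no independent evidence, 0 of 8 tested were called at 6 h (edgeR, 1 at an unadjusted p under 0.05) and 8 higher at 24 h. Whether these lists differed between 6 h and 24 h was tested gene by gene only, with 0 calls by edgeR as given above. The numbers of calls per list cannot decide it, because the test had less power in the simulated counts of 6 h.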

How the data were processed

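Total RNA of EGCs was made into 3′ mRNA libraries and sequenced. The deposited counts are whole-number reads per gene of each library, for which the authors removed adapters with fastq-mcf, used HISAT2 for alignment to mm10, dropped reads matching several places and counted with HT-seq Count. The submitters' processing notes name FastQC 0.11.7 and SAMtools 1.5. The annotation, the strand setting and any use of molecular identifiers are not given in the sources used here, so intervals and floors cover counting error only.

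Groups came from the sample titles. Of 43472 genes, 9256 passed filterByExpr (minimum count 10) in the 12 libraries of 6 h. TMM-scaled counts were fitted with edgeR 4.0.16 (R 4.3.3) by the quasi-likelihood test, with a mean per group, Benjamini-Hochberg adjustment over all genes tested and a threshold of 0.05. The libraries of 12 h and of 24 h were fitted in the same way, and the change from 6 h to 24 h as an interaction. Total counts, genes detected and shares of counts were compared with exact permutation tests (scipy 1.17.1), not adjusted for the number of measures.

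The libraries and the 31 gene lists were chosen with earlier results of these data known. The genes named were those called, up to 10 higher and 10 lower next by p without overlap and with a group mean of at least 20 CPM, of each list up to 4 tested members of highest mean level plus any called, and genes the study names. Alternatives were DESeq2 1.42.0, limma 3.58.1 (voom with quality weights), DESeq2 size factors, no filter, a replicate block, other sets of libraries and leaving out each library in turn. Alternatives per gene were run for 35 genes, those of the lists excepted. Some genes that the rule takes in are not reported here. The fit was tested on simulated data with known changes. Promoter windows came from RefSeq (GRCm38.p6) and gene positions and overlaps from GENCODE vM21.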

Additional observations from a re-analysis of the deposited data

Results flagged for a closer look

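Of 85 groups of 4 libraries tested for a library far from the other 3 with Dixon's criterion at 95%, 11 had one, and chance alone gives about 1 in 20 such groups. For the Yam1 share of counts, unstimulated replicate 4 (13.1%) and H-CM replicate 4 (19.99%) lay far below the others of their groups, and TME-CM replicate 2 (37.8%) far above. The 10 most abundant genes took 29.4% of the counts of H-CM replicate 4, far below the other H-CM libraries.

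Among genes in TME-CM EGCs, Ccl2 stood at 1885 CPM in replicate 4, Nfkbiz at 176 CPM in replicate 3, and Ikzf1 at 5.85 CPM and Ntsr1 at 20.9 CPM in replicate 2, each far above the other TME-CM libraries. Among genes in H-CM EGCs, Cxcl10 stood at 35.7 CPM in replicate 1, and Timp1 at 131 CPM and Lcn2 at 98.1 CPM in replicate 4, where they rest on 4 and 3 counts.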

How the results depend on the processing

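The 9 genes called at 6 h kept their direction in all 21 alternatives, 4 of which (DESeq2 or the replicate block without H-CM replicate 4, a term for the Yam1 class, and only libraries of high Yam1 share) were chosen after seeing the data. The number of genes called in TME-CM against H-CM at 6 h was 2 with DESeq2 size factors, 41 without a filter, 23 with DESeq2 (all 9 among them), 20 with voom (7 of the 9), 19 with only the 8 libraries compared and 899 with all 36 libraries in 1 fit, which also tested more genes (13469). It was 35 with DESeq2 without H-CM replicate 4, 2 with the Yam1 term, 0 within high Yam1 share, and 2 to 25 when 1 library was left out (25 without TME-CM replicate 2, and 2 without H-CM replicate 2, 3 or 4 or TME-CM replicate 3). TME-CM against unstimulated EGCs called 23 with size factors, 105 without a filter, 72 with DESeq2, 1113 with all libraries, and 19 to 105 with 1 library left out (19 without unstimulated replicate 1, 105 without TME-CM replicate 2). H-CM against unstimulated EGCs called 1 without a filter and 0 in all other alternatives, leaving out a library included. At 12 h the count was 465 without a filter, 383 with DESeq2 and 137 to 297 with 1 library left out, and at 24 h 417 to 776. The change from 6 h to 24 h called 88 without a filter, 34 with DESeq2, 1 without libraries under 500000 counts, and 0 to 479 with 1 library left out (479 without TME-CM replicate 2 of 6 h). The cause of these differences was not tested.

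No label says whether the replicate numbers pair the libraries. Deviations of same-numbered TME-CM and H-CM libraries correlated at -0.04, 0.07, -0.05 and -0.01 across genes. These correlations cannot exclude a pairing, because most genes had few counts in H-CM replicate 4 and the unstimulated libraries were not compared. With the replicate block, 4 genes were called in TME-CM against H-CM (3 of the 9), 2 without H-CM replicate 4, 23 against unstimulated EGCs and 1 for the change from 6 h to 24 h.

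Among the 35 genes followed, 3 that were not called changed sign. S100b was -0.35 with voom and -0.32 to 0.56 with 1 library left out (-0.32 without TME-CM replicate 1). Lcn2 was 0.14 with voom, 0.19 with all libraries, 0.33 without libraries under 500000 counts or without H-CM replicate 4, 0.26 with DESeq2 and 0.91 with the block when that library was left out, 0.68 within high Yam1 share, and -0.74 to 0.33 with 1 library left out. Ntsr1 was 1.51 with the Yam1 term and 0.59 within high Yam1 share. Without H-CM replicate 4, the medians of 4 lists moved beyond the spread, to 1.87 for CC chemokines, 3.20 for the IL-6 family, 0.00 for immediate early genes and -0.64 for prostaglandin genes, over more tested members. Depth limits the comparison: 8624 of the genes tested had at most 3 counts in H-CM replicate 4.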

Other observations

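Beside Il6, 2 cytokine genes too low for the test had most of their counts in TME-CM replicates 1 and 4, which are also the deepest libraries. Lif, a cytokine of the IL-6 family, had 85, 11, 2 and 62 counts in TME-CM replicates 1 to 4 and 0, 3, 0 and 0 in H-CM replicates 1 to 4. Csf3, which drives neutrophil production, had 43, 2, 2 and 45 counts in TME-CM and 0 in each H-CM replicate. Lif and Csf3 were chosen after their values were seen, and no test was run over them as a group. Tnf, of the same list, had 10, 11, 0 and 0 counts in H-CM and 1, 0, 0 and 0 in TME-CM replicates. Il1b had 12, 1, 0 and 0 in H-CM and 0, 3, 0 and 3 in TME-CM replicates. Fitted without the filter, Tnf, Il1b and Il34 were the untested members of that list with log2 fold changes below 0 (-5.45, -2.65 and -0.125).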
